A study of Mus musculus with 20 samples.

Results

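The cell polarity and junction scaffold genes are 10 genes of the 53028 in the count table, namely Pard3, Pard3b, Pard6b and Prkci of the Par complexes, Magi1, Cgn and Tjp1 of the tight junction, and Cadm1, Pkp4 and Lpp of cell adhesion sites. They were chosen by name, in part because several had been seen to be higher in SNORA73 LNA livers. Their difference between LNA groups is therefore given as a description without a test, in total RNA and in polysome RNA of the same mice, and supports nothing. All 10 passed the filter on low counts in every comparison, although Pard3b came down to 10 counts in its lowest library.

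Hepatocytes are polarized cells whose apical membranes face one another across the bile canaliculus, a narrow channel sealed by tight junctions. Par complexes, built from a Par3 scaffold, a Par6 adaptor and an atypical protein kinase C, mark out the apical side and position the junctions. Scaffolds with PDZ domains and cytoskeletal linkers such as cingulin hold the junction proteins in place and tie them to actin, while immunoglobulin adhesion molecules and armadillo proteins join neighbouring cells.

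The livers came from 10 chow-fed male C57BL/6J mice. The control group, mice 1, 2, 3, 8 and 9, received an LNA (an antisense oligonucleotide stiffened by locked nucleic acids) against GFP, which mice do not carry. The other group, mice 4, 6, 10, 11 and 12, received an LNA against SNORA73, a nucleolar H/ACA snoRNA, although the sample labels spell the target Snora37(kd). Each mouse was given 3 intraperitoneal injections of 3 mg/kg from an age of 8 weeks, 1 every other day. The liver was taken 2 days after the last, while another passage of the methods gives an older age for the liver polysomes. That passage also describes a tail vein injection of cycloheximide, an inhibitor of translation, shortly before the livers were taken. From each liver 1 library was made of total RNA and 1 of RNA from polysome fractions, the ribosome-loaded part of a sucrose gradient, both after selection of polyadenylated RNA.

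The oligonucleotides that define the groups are shown 5′ to 3′ with the locked bases in capitals. Each has 20 bases, of which 10 are locked, and the labels do not say which of both SNORA73 LNAs the sequenced mice received.
SNORA73 LNA 1: AAGTCgtaggaatatGCAGG
SNORA73 LNA 2: GACTCtgagaagtcgTAGGA
GFP LNA: TCACCttcaccctctCCACT

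Total counts per library ranged from 14852951 to 42023390. Snora73a and Snora73b had at most 4 counts in any library, too few to read the depletion of the target. In whole liver, more cells of a type and more RNA per cell cannot be told apart. The study kept 4 mice per group without naming the ones it set aside, and an earlier analysis of these data took them to be mice 9 (GFP LNA) and 10 (SNORA73 LNA). All 10 labelled mice were used here, and the values of the other 8 mice stand beside them. GFP LNA mouse 9 stood apart for the polarity and junction genes. It had the highest level of its group for 6 of the 10 genes (Pard3, Pard3b, Magi1, Cadm1, Pkp4 and Lpp) in both RNAs and the lowest for Cgn and Tjp1. Setting it aside thus widens the difference between groups for those 6 genes by construction. Mouse 10 was the lowest of its group for Pard3b, Cadm1, Pkp4 and Lpp in both RNAs. Its absence from the 8 mice widens the difference for these genes further.

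Pard3 and Pard3b, the Par3 scaffolds, had higher means in SNORA73 LNA livers, whereas Pard6b and Prkci did not. In total RNA, Pard3 was at 17.1, 17.9, 20.3, 21.4 and 39.3 CPM (the count scaled to library size after TMM correction) in GFP LNA mice 1, 2, 3, 8 and 9. In SNORA73 LNA mice 4, 6, 10, 11 and 12 it was at 34.7, 37.1, 36.0, 40.9 and 37.2 CPM. Mice 1, 2, 3 and 8 were below every SNORA73 LNA mouse, while mouse 9 lay inside the range of the SNORA73 LNA group. The log2 fold change was 0.68 (SE 0.20) over 10 mice and 0.97 (SE 0.10) over 8.

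In polysome RNA, Pard3 was at 21.4, 19.7, 20.4, 22.5 and 49.5 CPM in the GFP LNA mice in the same order. The SNORA73 LNA mice had 42.7, 47.6, 38.1, 93.1 and 47.8 CPM. Mouse 11 was far above the next mouse, and mouse 9 was again the only control inside the SNORA73 LNA range. The log2 fold change was 1.01 (SE 0.30) over 10 mice and 1.46 (SE 0.23) over 8. These are other libraries of the same animals, not further animals.

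Pard3b, a paralog that also binds at tight junctions, was scarce. In total RNA it was at 1.07, 0.782, 1.33, 1.38 and 3.69 CPM in the GFP LNA mice and at 3.94, 3.18, 2.82, 5.72 and 4.57 CPM in the SNORA73 LNA mice. Mouse 9 was above 2 of the SNORA73 LNA mice, and the other controls were below all of them. The log2 fold change was 1.32 (SE 0.37), the largest of the 10 genes, and 1.94 (SE 0.23) over 8 mice. In polysome RNA the controls had 1.58, 0.455, 1.66, 2.43 and 5.15 CPM. The SNORA73 LNA mice had 7.76, 6.43, 3.46, 16.5 and 9.16 CPM there, so that mice 9 and 10 alone made the groups overlap. The polysome difference was 1.94 (SE 0.51) over 10 mice and 2.70 (SE 0.42) over 8.

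The partners of Par3 had no higher means with the SNORA73 LNA. Pard6b, the adaptor, had a mean of 4.24 ± 0.627 CPM (SD, n = 5) in total RNA of GFP LNA livers and 3.45 ± 0.196 CPM (SD, n = 5) in SNORA73 LNA livers. Its log2 fold change was -0.30 (SE 0.13), and -0.15 (SE 0.17) in polysome RNA. Prkci, the atypical kinase, had 8.63 ± 0.490 and 8.34 ± 1.05 CPM (SD, n = 5 each) in total RNA. Its difference in polysome RNA was -0.10 (SE 0.21), which turned to 0.05 without mouse 10, its lowest library.

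Among the tight junction scaffolds, Magi1 and Cgn had higher means with the SNORA73 LNA and Tjp1 did not. Magi1, a membrane-associated guanylate kinase with several PDZ domains, was at 3.88, 3.64, 4.29, 4.54 and 13.2 CPM in total RNA of the GFP LNA mice. It was at 7.62, 8.68, 8.15, 10.7 and 9.39 CPM in the SNORA73 LNA mice. Mouse 9 exceeded every mouse of both groups, and the remaining controls were below every SNORA73 LNA mouse. The log2 fold change of Magi1 moved from 0.60 (SE 0.32) over 10 mice to 1.16 (SE 0.13) over 8. In polysome RNA the controls had 2.44, 2.68, 3.11, 4.13 and 11 CPM and the SNORA73 LNA mice 5.93, 9.87, 8.54, 12.1 and 7.40 CPM. There mouse 9 was inside the SNORA73 LNA range and only mouse 11 was above it. The polysome difference was 0.91 (SE 0.39), against 1.52 without mouse 9 alone and 1.53 (SE 0.26) over 8 mice.

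Cgn, which encodes cingulin, the linker between tight junctions and actomyosin, followed another pattern across mice. Its total RNA level was 13.0, 8.87, 10.7, 10.8 and 7.89 CPM in the GFP LNA mice and 23.2, 16.3, 14.8, 22.5 and 15.7 CPM in the SNORA73 LNA mice. The groups did not overlap over all 10 mice, and mouse 9 was the lowest control. Cgn alone of the 10 genes showed this in total RNA, where 1.10% of all 13195 genes tested did so in that direction. On the log2 scale the difference was 0.85 (SE 0.17) over 10 mice and 0.84 (SE 0.16) over 8. In polysome RNA the controls were at 18.7, 13.0, 15.0, 19.9 and 11.7 CPM and the SNORA73 LNA mice at 26.2, 18.9, 21.1, 69.0 and 31.4 CPM. Mouse 11 was far above the rest and mouse 6 fell inside the control range. The polysome difference was 1.09 (SE 0.31), 1.13 (SE 0.33) over 8 mice, and 0.65 (SE 0.19) without mouse 11.

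Tjp1, the ZO-1 scaffold that links claudins to actin, was at 14.7, 17.8, 12.4, 16.4 and 12.2 CPM in total RNA of the GFP LNA mice. The SNORA73 LNA mice had 14.0, 10.3, 14.9, 12.4 and 14.0 CPM, which overlapped the controls. On the log2 scale Tjp1 differed by -0.16 (SE 0.13) at the level of total RNA and by 0.24 (SE 0.21) in polysomes.

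The 3 adhesion genes had higher means with the SNORA73 LNA in both RNAs. Cadm1, an immunoglobulin adhesion molecule, was at 17.3, 18.5, 18.2, 16.5 and 29.8 CPM in total RNA of the GFP LNA mice and at 25.5, 25.4, 24.6, 34.4 and 26.6 CPM in the SNORA73 LNA mice. Mouse 9 was again the control that lay inside the other group. The fitted difference was 0.44 (SE 0.16) on the log2 scale, and 0.54 (SE 0.15) for polysomes. Over 8 mice these values were 0.66 (SE 0.11) and 0.72 (SE 0.14), with groups that did not overlap in either RNA.

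Pkp4, an armadillo protein of adherens junctions and desmosomes, was at 30.9, 32.7, 31.2, 33.9 and 45.2 CPM in total RNA of the GFP LNA mice. The SNORA73 LNA mice had 46.2, 47.4, 40.2, 55.7 and 48.0 CPM. Only mice 9 and 10 crossed, since mouse 10 was the lowest of its group. In polysome RNA the controls had 44.6, 37.1, 43.4, 43.6 and 58.2 CPM and the SNORA73 LNA mice 80.4, 69.5, 55.7, 127 and 79.7 CPM. In total RNA the log2 fold change was 0.45 (SE 0.12) over 10 mice and 0.62 (SE 0.091) over 8. In polysome RNA it was 0.86 (SE 0.20) and 1.08 (SE 0.18).

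Lpp, a LIM protein of focal adhesions and cell contacts, was at 20.4, 26.4, 23.4, 20.3 and 60.2 CPM in total RNA of the GFP LNA mice and at 45.1, 39.5, 34.1, 52.8 and 37.9 CPM in the SNORA73 LNA mice. Mouse 9 was the highest of all 10 mice in both RNAs. In polysome RNA the controls had 15.1, 18.4, 16.2, 18.9 and 44.4 CPM and the SNORA73 LNA mice 40.0, 36.1, 31.5, 41.6 and 33.7 CPM. Lpp thus had a log2 fold change of 0.48 (SE 0.28), and of 0.69 (SE 0.26) for polysomes. Without mouse 9 alone the total RNA value was 0.88 (SE 0.14) and the polysome value 1.10. Over 8 mice they were 0.95 (SE 0.13) and 1.15 (SE 0.13).

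**Figure D1:**
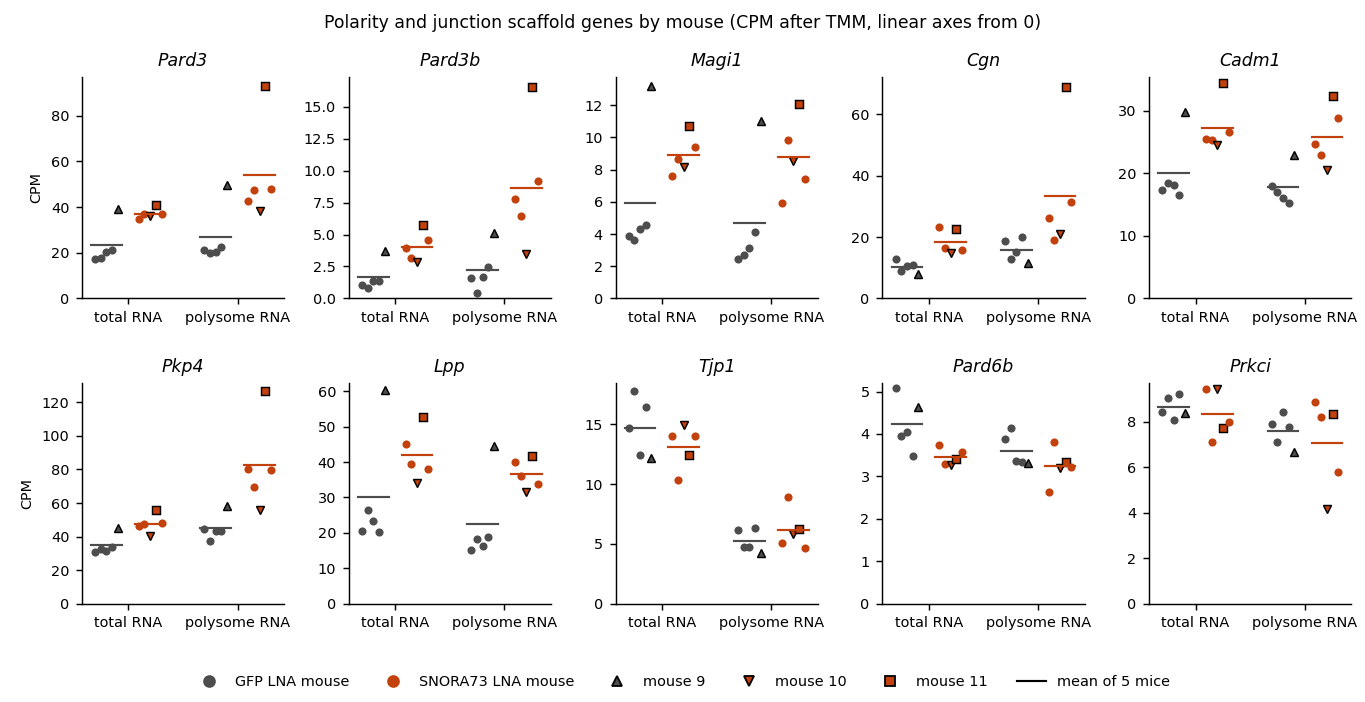
CPM of the 10 genes in each mouse (linear axes from 0), total RNA on the left and polysome RNA on the right of each panel, with GFP LNA mice in grey, SNORA73 LNA mice in orange and a line at the mean of 5 mice. Mouse 9 (upward triangle) lies above the other 4 controls for Pard3, Pard3b, Magi1, Cadm1, Pkp4 and Lpp and below them for Cgn and Tjp1, and mouse 11 (square) is the highest polysome library for Pard3, Pard3b, Cgn and Pkp4.

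The median log2 fold change of the 10 genes in polysome RNA was 0.78 over 10 mice and 1.11 over 8, beside a median of all genes at -0.01 and at 0.00 within rounding. The ranges of all 10 genes overlapped between groups in polysome RNA over 10 mice, where 2.11% of all genes were higher without overlap. Over 8 mice 6 of the 10 genes (Pard3, Pard3b, Magi1, Cadm1, Pkp4 and Lpp) were higher without overlap, as were 4.85% of all genes.

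In total RNA the median of the 10 genes was 0.46 over 10 mice and 0.75 over 8. Over 8 mice 7 genes (all but Tjp1, Pard6b and Prkci) were higher without overlap, as were 4.23% of all genes. Nothing is read from these counts, because the genes were chosen with the difference between LNA groups known.

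**Figure D2:**
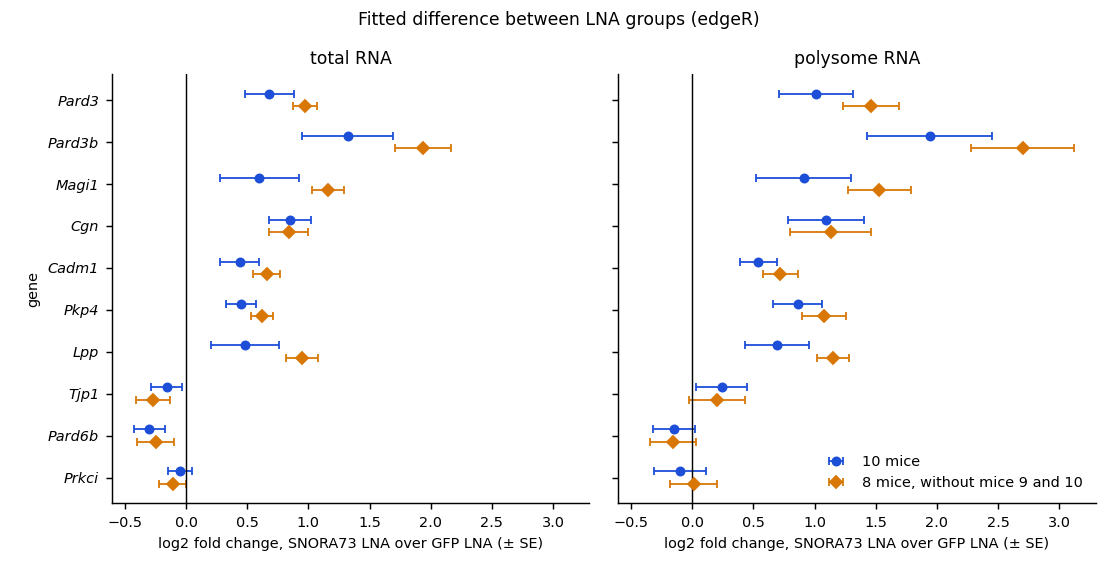
Log2 fold change of SNORA73 LNA over GFP LNA with its standard error from the edgeR fits of total and polysome RNA, over 10 mice (blue circles) and over 8 mice without mice 9 and 10 (orange diamonds). The 7 upper genes lie above 0 in every fit, from 0.44 for Cadm1 in total RNA to 2.70 for Pard3b in polysome RNA of 8 mice. Tjp1, Pard6b and Prkci lie between -0.30 (Pard6b, total RNA, 10 mice) and 0.24 (Tjp1, polysome RNA, 10 mice).

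The difference in polysome RNA minus that in total RNA was above 0 for 9 of the 10 genes, and 47.6% of all 13795 genes fitted together were above 0. It was largest for Pard3b at 0.62 (SE 0.68), followed by Pkp4 at 0.41 (SE 0.25) and Tjp1 at 0.41 (SE 0.24), and lowest for Prkci at -0.04 (SE 0.22). Each value was smaller than 2 of its standard errors. With the mouse as a replicate block Pkp4 was at 0.37 (SE 0.13) and Pard3b at 0.62 (SE 0.28). These values use the difference between LNA groups, with which the genes were chosen, and were not tested.

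Markers of other liver cells were summed in the same libraries. The 9 markers of sinusoidal endothelium summed to 160 to 197 CPM in total RNA of GFP LNA livers and to 195 to 218 CPM in SNORA73 LNA livers. In polysome RNA they summed to 123 to 135 and to 152 to 171 CPM, without overlap. Of these markers 1, the scavenger receptor gene Stab2, passed the thresholds in total RNA and 0 in polysome RNA over 10 mice. Markers of cholangiocytes, Kupffer cells and stellate cells overlapped between groups, with 0 passing in either RNA. The part of endothelial RNA in the levels of the polarity and junction genes was not tested.

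Mouse 9 also differed from the other controls in these sums. Its endothelial sum of 197 CPM in total RNA was the highest of the controls and inside the SNORA73 LNA range, while in polysome RNA it was 133 CPM, inside the control range. Its 9 hepatocyte markers had the lowest sum of the controls in total RNA, 46991 CPM of a range up to 71219 CPM, and its stellate, Kupffer and cholangiocyte sums were the highest of the controls in both RNAs. Mouse 10 shared the low hepatocyte sum (47896 CPM) and the high Kupffer and cholangiocyte sums within its own group. For the polarity and junction genes, however, mouse 10 was the lowest of its group for 6 of 10 in each RNA. Mouse 11 was the highest for 6 in total RNA and 7 in polysome RNA.

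Most of these genes are long. Pard3b spans 1004 kb, Magi1 608 kb, Lpp 599 kb, Pard3 549 kb and Cadm1 332 kb on the genome, from the RefSeq annotation of GRCm38.p6. Thus 5 of the 10 genes exceed 300 kb, as do 2.04% of the tested genes with a known span, and 7 exceed 100 kb, as do 12%. Other long genes had medians above 0 too. The 248 other genes over 300 kb had a median log2 fold change of 0.11 in total RNA, with 95% of them under 0.77. In polysome RNA the median of 233 such genes was 0.24, with 95% under 1.07, while genes of 10 to 30 kb had medians of 0.00 and -0.04. The 10 genes were chosen with their difference between LNA groups known, so their places against such limits are a description and no test. Over 10 mice Pard3b lay above the 95% limit of the long genes in both RNAs, whereas Pard3, Magi1, Cadm1 and Lpp lay below it. Over 8 mice that limit was 0.87 in total and 1.17 in polysome RNA. Pard3b, Pard3 and Magi1 were then above it in both RNAs, Lpp in total RNA only and Cadm1 in neither.

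The rest of the 10 genes span less than 300 kb. Cgn spans 27.7 kb and had the second largest difference of the 10 genes in each RNA over 10 mice. Over 8 mice Cgn came after Pard3b, Magi1, Pard3 and Lpp in both. Pkp4 spans 194 kb and was above the 95% limit of genes of 100 to 300 kb in polysome RNA, 0.76 over 10 mice and 0.90 over 8. In total RNA it was above the limit as well, 0.44 and 0.49. Tjp1 spans 232 kb, in the same range, and its difference in total RNA was -0.16. Pard6b and Prkci, with differences of -0.30 and -0.05 in total RNA, span 20.2 and 57.0 kb. The genes were chosen with these differences known, and the part of gene span in them was not tested.

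**Figure D3:**
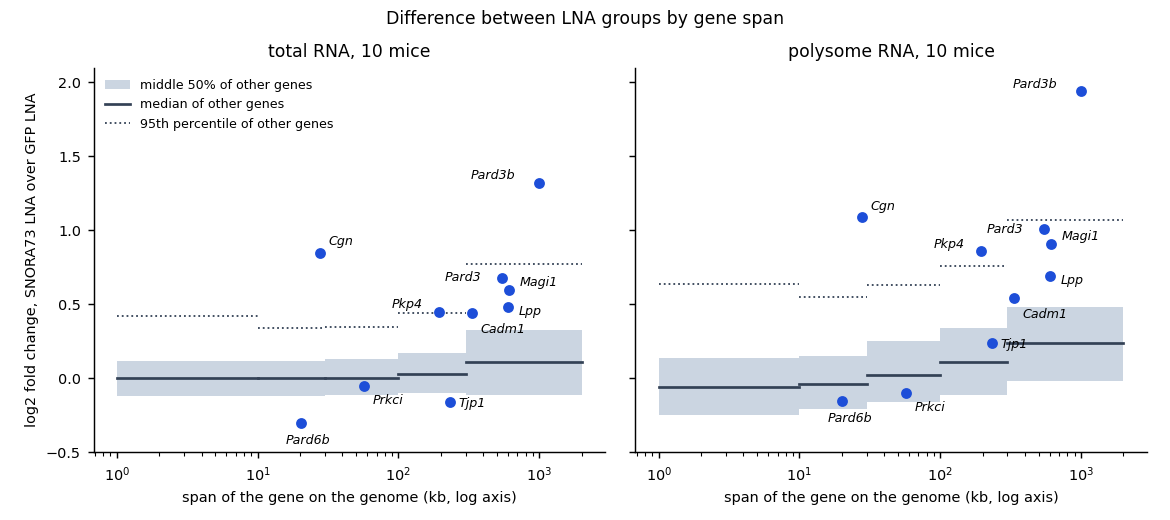
Log2 fold change of SNORA73 LNA over GFP LNA over 10 mice against gene span in kb (log axis), for total and polysome RNA. Points are the 10 genes, and for the other genes in 5 span ranges (the outermost drawn with arbitrary outer ends) the band holds the middle 50%, the solid line the median and the dotted line the 95th percentile. The median of other genes over 300 kb is 0.11 in total and 0.24 in polysome RNA, and Cgn lies above the dotted line of its span range. The 10 genes were chosen with this difference known.

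Promoter windows of 250 bases before the annotated starts were found in RefSeq (GRCm38.p6) for 9 of the 10 genes, 13 windows in all. Some lie before starts inside the gene. The windows of Magi1 and Tjp1, both on the minus strand, end at 93913213, 93913940 and 65371494, whereas these genes reach 94283929 and 65527850. No window at those outer ends was among the 13, nor at those of Pard3 and Cgn. The first window of Pard3, on the plus strand, begins at 127063806, while the gene begins at 127063381. That of Cgn, on the minus strand, ends at 94786732, while the gene reaches 94787725. The window of Pard3b, from 61638574 to 61638823, includes the start of the gene at 61638667. The 13 windows were rich in G and C, with a median of 63.2% against 52.4% over all 32851 windows. They held a median of 18.0 CpG against 6.00. The GC box GGGCGG, read on both strands (CCGCCC), was present in 7 of the 13 windows and in 32.7% of all windows. The E-box CACCTG, which reads as CAGGTG from the other strand and is a motif bound by Snail and Zeb factors, was in 4 of 13 and in 17.2% of all. The TATA box letters TATAAA were in 1 window (12.4% of all) and the TEAD letters GGAATG in 2 (12.6%), again on both strands. A match of letters describes these windows and says nothing of binding. Shown are the first windows of the Par3 genes and of Cgn, which had the 3 largest polysome differences over 10 mice, with GC boxes and E-boxes in capitals. The window of Tjp1, whose polysome difference was 0.24 (SE 0.21), is shown as well.
Pard3, GRCm38.p6 chr8:127063806-127064055, plus strand: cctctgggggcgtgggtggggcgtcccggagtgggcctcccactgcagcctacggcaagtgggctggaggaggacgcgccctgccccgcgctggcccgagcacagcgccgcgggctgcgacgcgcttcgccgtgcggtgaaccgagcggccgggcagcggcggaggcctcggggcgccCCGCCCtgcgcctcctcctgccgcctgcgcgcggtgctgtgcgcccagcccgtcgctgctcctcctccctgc
Pard3b, GRCm38.p6 chr1:61638574-61638823, plus strand: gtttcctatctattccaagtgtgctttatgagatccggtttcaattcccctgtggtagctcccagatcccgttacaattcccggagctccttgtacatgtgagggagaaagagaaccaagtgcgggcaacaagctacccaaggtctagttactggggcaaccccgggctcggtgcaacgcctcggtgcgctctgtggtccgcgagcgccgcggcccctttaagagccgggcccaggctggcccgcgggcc
Cgn, GRCm38.p6 chr3:94786483-94786732, minus strand: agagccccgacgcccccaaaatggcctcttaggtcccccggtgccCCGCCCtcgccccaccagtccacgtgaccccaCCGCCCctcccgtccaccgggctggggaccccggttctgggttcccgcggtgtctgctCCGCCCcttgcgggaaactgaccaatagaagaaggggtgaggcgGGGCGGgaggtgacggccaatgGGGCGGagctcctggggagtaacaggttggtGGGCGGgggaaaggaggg
Tjp1, GRCm38.p6 chr7:65371245-65371494, minus strand: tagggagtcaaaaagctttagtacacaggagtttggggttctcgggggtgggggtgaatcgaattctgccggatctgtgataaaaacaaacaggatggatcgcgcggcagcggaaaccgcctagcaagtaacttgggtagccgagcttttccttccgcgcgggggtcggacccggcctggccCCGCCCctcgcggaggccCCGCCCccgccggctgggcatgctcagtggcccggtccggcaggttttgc

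The GC box was thus found in windows of genes with a higher mean in total RNA of SNORA73 LNA livers, such as Pard3 and Cgn. It was also found in windows of Tjp1, Pard6b and Prkci, which had no higher mean there, and in no window of Pard3b or Lpp.

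Polysome RNA was compared with total RNA of the same livers, within each LNA group. The genes were not chosen on this comparison, but their choice drew on the difference between LNA groups in the same libraries. The calls below, above all those in SNORA73 LNA livers, are therefore not independent of that choice. In GFP LNA livers, Tjp1 was depleted from polysome RNA and Cgn enriched, each relative to all other genes in the same libraries. Tjp1 fell from 14.7, 17.8, 12.4, 16.4 and 12.2 CPM in total RNA to 6.14, 4.73, 4.72, 6.35 and 4.23 CPM in polysome RNA of mice 1, 2, 3, 8 and 9. It was lower in 5 of 5 mice without overlap, with a log2 difference of -1.54 (SE 0.16, edgeR FDR 9.43e-06), and 2.42% of all genes had a smaller value. Cgn was higher in polysome RNA in 5 of 5 mice, by 0.42 to 0.83 on the log2 scale, with a fitted difference of 0.56 (SE 0.17, FDR 0.0173). This call was lost without mouse 3 (FDR 0.0511) or mouse 8 (FDR 0.0703). Of the 10 genes 1 was thus higher and 1 lower, where 24.7% of 13283 genes were higher and 24.0% lower.

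With the mouse as a replicate block, which pairs the libraries of 1 liver, 2 genes were higher and 4 lower in GFP LNA livers, where 32.3% and 30.7% of all genes were. Pkp4 was higher by 0.34 (SE 0.070, FDR 0.00112). Magi1 was lower at -0.44 (SE 0.13, FDR 0.0104), Lpp at -0.46 (SE 0.074, FDR 0.000166) and Cadm1 at -0.20 (SE 0.068, FDR 0.0211). Without the block, leaving out mouse 9 gave the calls for Pkp4 (FDR 0.00922), Magi1 (FDR 0.0464) and Lpp (FDR 0.00619) but not Cadm1.

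In SNORA73 LNA livers, Tjp1 was again lower in polysome RNA in 5 of 5 mice, at -1.11 (SE 0.19, FDR 0.000912). Mouse 6 had the smallest drop, from 10.3 to 8.95 CPM, while mouse 12 went from 14.0 to 4.69 CPM. Pkp4 was higher by 0.76 (SE 0.19, FDR 0.00953) and Pard3b by 1.06 (SE 0.34, FDR 0.0310), each in 5 of 5 mice. The call for Pard3b was lost when mouse 4, 6, 11 or 12 was left out, with FDR of 0.0852, 0.0708, 0.0513 and 0.0906, and also by limma-voom (FDR 0.0689). So 2 genes were higher and 1 lower, where 17.2% and 15.8% of 13063 genes were. With the replicate block Pard3 (0.42, SE 0.15, FDR 0.0359) and Cgn (0.67, SE 0.19, FDR 0.0147) were higher as well, making 4 higher and 1 lower, where 24.0% and 22.3% of all genes were. In mouse 11 the log2 ratio of polysome over total RNA was the highest of all mice for these 4 genes, 1.14 for Pard3, 1.47 for Pard3b, 1.56 for Cgn and 1.14 for Pkp4. Without mouse 11 and without the block, the difference between polysome and total RNA went from 0.50 to 0.25 for Pard3 and from 0.81 to 0.45 for Cgn.

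**Figure D4:**
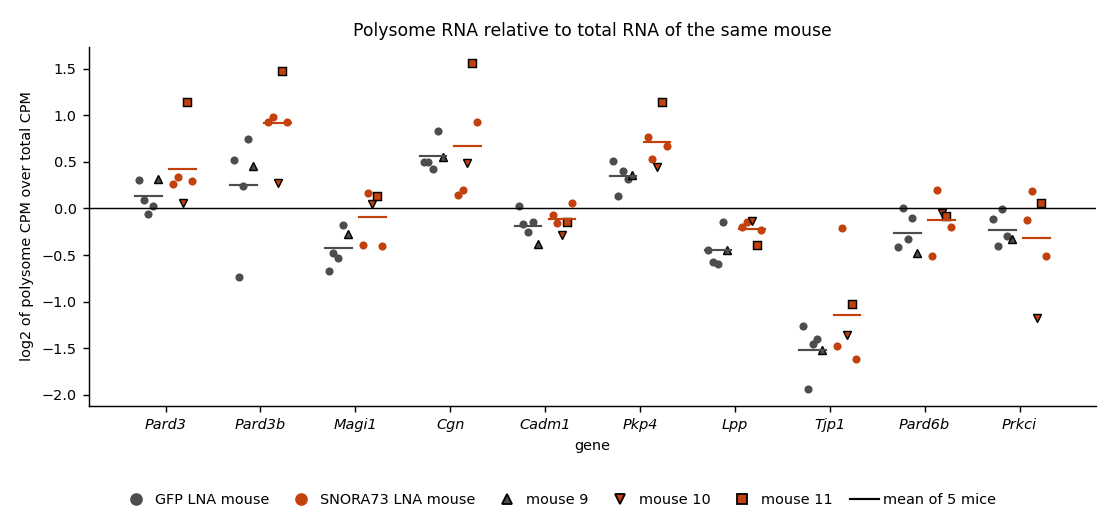
Log2 of polysome CPM over total CPM of the same mouse for the 10 genes, GFP LNA mice in grey and SNORA73 LNA mice in orange, with a line at the mean of 5 mice and 0 marking equal shares of both RNAs. Tjp1 lies below 0 in all 10 mice (from -1.94 to -0.21), Cgn and Pkp4 lie above 0 in all 10, and mouse 11 (square) is the highest for Pard3, Pard3b, Cgn and Pkp4.

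The 10 genes were not tested between LNA groups, and none of the further listed genes of polarity and junctions passed an FDR of 0.05 by edgeR. Lists of 153 further genes (Par and polarity complexes, tight, adherens and gap junctions, desmosomes, Cadm-related molecules and the bile canaliculus) gave 136 tested in total RNA and 133 in polysome RNA. By edgeR the count higher (with a log2 fold change of at least 0.5) or lower was 0 in either RNA, over 10 and over 8 mice. Among all genes 0.0303% in total and 0.0153% in polysome RNA were higher over 10 mice, and 0.553% and 0.211% over 8. By limma-voom the count was also 0, and by DESeq2 it was 0 in total RNA and 2 (Lin7a and Alcam, both higher) in polysome RNA. An unadjusted edgeR p under 0.05 was found for 16 of the 136 genes in total RNA, where 1141 of all 13195 genes had one. In polysome RNA it was found for 19 of the 133, where 13.4% of all genes had one. On the log2 scale their median difference was -0.01 for total RNA and 0.01 for polysomes, and 69 of the 133 were above 0 in polysome RNA, where 48.6% of all genes were. The lowest polysome FDR among them was 0.175, that of Alcam, an adhesion molecule (log2 fold change 0.59, SE 0.16).

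Paralogs and binding partners of the 10 genes differed in both directions between LNA groups. In polysome RNA, Prkcz, the other atypical kinase, had a log2 fold change of -0.01 (SE 0.17), Cdc42, the GTPase that activates the Par complex, -0.24 (SE 0.15), Pard6a -0.20 (SE 0.27) and Magi3 -0.16 (SE 0.25). Tjp3 was at -0.24 (SE 0.19), the cingulin paralog Cgnl1 at 0.46 (SE 0.25) and the nectin linker Afdn at 0.59 (SE 0.21). Cadm4 had 0.57 (SE 0.18), Cadm3 -0.23 (SE 0.20), Pkp2 0.17 (SE 0.11) and Pkp3 -1.06 (SE 0.50), a low gene with a wide error. Ocln, which encodes occludin, was at -0.34 (SE 0.28) and Cdh1, E-cadherin, at -0.27 (SE 0.14). All had an FDR above 0.2, in a fit where only 2 of 13060 genes passed the thresholds, so the FDR does not set them apart. Magi2, Pkp1 and Cadm2 were too low to be tested in either RNA, as was Pard6g in polysome RNA.

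In polysome against total RNA, more of these listed genes were lower than higher. In GFP LNA livers 12 of the 136 genes rose and 52 fell, and their median was -0.18 beside 0.03 over all genes, of which 24.7% rose and 24.0% fell. In SNORA73 LNA livers 14 of 134 rose and 38 fell, around a median of -0.17, where 17.2% and 15.8% of all genes did. With the replicate block these counts were 25 and 61 in GFP LNA livers, where 32.3% and 30.7% of all genes were called, and 21 and 48 in SNORA73 LNA livers, where 24.0% and 22.3% were. Among 27 tight junction genes other than the 3 scaffolds, 1 was higher and 12 lower in GFP LNA livers (4 and 14 with the block). Cldn1, a claudin of the barrier, was at -1.87, the coxsackievirus and adenovirus receptor gene Cxadr at -1.83, Magi3 at -1.02 and Ocln at -0.95 there, and each also passed the test as lower in SNORA73 LNA livers. Among the higher genes of the lists were Pard6a at 0.86 (FDR 0.0136) and Afdn at 0.59 (FDR 0.000192).

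Across the 20 libraries, each gene was compared with the mean of the 10 genes after centring log2 CPM within each RNA. Pard3 (Pearson r 0.973), Pard3b (0.970), Pkp4 (0.969), Cadm1 (0.924), Magi1 (0.903) and Lpp (0.880) followed the mean, of which each is a part. Cgn did so less (0.710), and Tjp1 (0.0381), Prkci (-0.0221) and Pard6b (-0.389) did not. The other genes nearest to this mean among 13593 were Znhit6, a snoRNP assembly factor (0.945), Itpr2, an inositol trisphosphate receptor (0.944), Utrn, utrophin (0.941), Eea1, an endosome tether (0.940), and Fbxw7, a ubiquitin ligase subunit (0.936). In polysome RNA over 10 mice their log2 fold changes ranged from 0.70 for Itpr2 to 1.30 for Znhit6. These correlations come from 10 mice with 2 libraries each, include the difference between groups, and carry no test.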

How the data were processed

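The deposited table gives estimated counts of genes for 20 libraries. The authors filtered reads with fastp (Phred quality of at least 15), removed rRNA reads with bowtie, quantified transcripts of Ensembl 102 with kallisto 0.46.2 and summed them to genes with tximport. Reads were reverse-stranded pairs, the strand option given to kallisto is not given in the sources used here, and kallisto divides reads shared by overlapping genes or paralogs. The submitters' processing notes also name Bowtie2, SAMtools and GRCm38. Estimated counts were rounded. Columns were assigned by their labels, leaving 0 columns without a sample, and symbols matched 51903 of 53028 gene IDs.

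Genes were kept if their CPM exceeded 0.5 in 4 or more libraries of a fit. After TMM scaling, edgeR 4.0.16 (R 4.3.3) gave quasi-likelihood tests, and p-values were adjusted over all genes tested (Benjamini-Hochberg, FDR). Between LNA groups a gene counted as higher with an FDR under 0.05 and a log2 fold change of 0.5 or more, and as lower at an FDR under 0.05. Between polysome and total RNA an FDR under 0.05 sufficed. CPM are TMM-scaled and are not divided by transcript length, so levels are compared within a gene only. For likeness, log2 CPM had a prior count of 2. The tests were checked on simulated counts. Alternatives were limma-voom (limma 3.58.1), DESeq2 1.42.0, its size factors in edgeR, library totals, no filter beyond 1 count, each mouse left out, mice 9 and 10 left out, and the mouse as a block. The mouse number pairs the total and polysome libraries of an animal, whose deviations from their group means correlated at 0.126 to 0.579. For SNORA73 LNA mouse 6 the value was 0.126, below the 0.246 between its total RNA and the polysome RNA of another mouse of its group. For mouse 4 these values were 0.153 and 0.114. The pairing of mouse 6 therefore rests on its label alone. Nothing in the labels tells littermates or cages apart. At 3 counts, the floor for detection, a library's CPM was 0.0674 to 0.220, for counting error only.

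The 10 genes, the pathway lists, the marker lists and the tests were chosen with earlier results of these data known. Named were all 10 genes, their paralogs and partners, and listed genes with large differences. The 10 genes were given no p-values between LNA groups in either RNA, although a test was planned for polysome RNA, because their choice drew on that difference. Alcam, Lin7a and Stab2 were named after their values were seen. Some listed genes are not reported here.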

Additional observations from a re-analysis of the deposited data

Results flagged for a closer look

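In 12 of 40 groups of 5 libraries (10 genes, both RNAs, both LNA groups), the highest library was farther from its neighbour than Dixon's criterion for 5 samples allows. For normally distributed values, a library at either end passes this limit by chance in about 1 group in 20. The groups share mice, so these are not separate events. Mouse 9, a GFP LNA mouse, accounted for 9 of them. In total RNA it had 39.3 CPM for Pard3, 3.69 for Pard3b, 13.2 for Magi1, 29.8 for Cadm1, 45.2 for Pkp4 and 60.2 for Lpp, where the next control had 21.4, 1.38, 4.54, 18.5, 33.9 and 26.4 CPM. In polysome RNA it had 49.5 CPM for Pard3, 11 for Magi1 and 44.4 for Lpp, where the next control had 22.5, 4.13 and 18.9 CPM.

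Mouse 11, a SNORA73 LNA mouse, accounted for the other 3. It had 93.1 CPM for Pard3 in polysome RNA, where the next mouse of its group had 47.8 CPM. Cgn was at 69.0 CPM in its polysome RNA against 31.4 CPM in the next mouse, and Cadm1 at 34.4 CPM in its total RNA against 26.6 CPM.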

How the results depend on the processing

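With 5 mice a group, the counts of genes called between LNA groups changed with the tool, the filter and the mice used. Among mice left out singly, mouse 9 gave the highest count in each RNA. In polysome RNA 2 genes were called, against 267 by DESeq2, 72 without the filter, 0 with library totals, 0 to 17 with each mouse left out (17 without mouse 9) and 31 without mice 9 and 10. In total RNA 4 were called, against 57 by DESeq2, 13 without the filter, 2 with library totals, 1 to 59 with each mouse left out (59 without mouse 9) and 93 without both mice. Library totals moved the median of all genes to -0.14 in total and -0.17 in polysome RNA, and the medians of the 10 genes were then 0.32 and 0.63. No alternative turned the sign of the 7 genes with higher means. These are refits of the same libraries, and the genes were chosen with this difference known, so the unchanged sign supports nothing.

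Between polysome and total RNA of GFP LNA livers, 1 gene was higher and 1 lower. Higher were 2 by limma-voom, by DESeq2 and with library totals, and 0 to 2 with each mouse left out. Lower were 1 to 3 with each mouse left out. In SNORA73 LNA livers 2 were higher, 1 by limma-voom and 1 to 2 with each mouse left out, and all genes called ranged from 2736 to 4094 then.

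The replicate block, which pairs the libraries of a mouse, gave 2 higher and 4 lower genes in GFP LNA livers and 4 higher and 1 lower in SNORA73 LNA livers. No paired analysis was possible between LNA groups because each mouse received 1 LNA. The causes of these changes were not tested.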
